A study of Mus musculus with 12 samples.

Results

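Phase I enzymes oxidise, reduce or hydrolyse foreign and endogenous compounds, and phase II enzymes couple the products to glucuronic acid or sulfate so that they can leave the cell. The best known switch of several of these genes is NRF2, a transcription factor that binds antioxidant response elements with small MAF partners and that the KEAP1 adaptor of a CUL3 ubiquitin ligase marks for degradation. Liver is the tissue richest in them.

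The genes described here were chosen by symbol. They are the protein-coding genes of the Cyp, Ugt, Sult, Akr, Aldh, Cbr and Ephx families and the quinone reductases Nqo1 and Nqo2, without Cyp1a1, Cyp1a2, Cyp1b1 and the sterol synthesis gene Cyp51. This gave 187 of the 54532 genes in the deposited table, made up of 96 Cyp, 22 Ugt, 21 Sult, 21 Aldh, 17 Akr, 4 Cbr, 4 Ephx and 2 Nqo genes. They were measured by RNA sequencing of poly(A)-selected RNA in C2C12 cells, an established line of mouse myoblasts. Cells were harvested 48 h after transfection with 30 nM siRNA. The sources used here do not say if cells given both siRNAs received this dose in sum or per siRNA. In the group called siCONTROL the siRNA was a control, in siKEAP1 it targeted Keap1, in siCCNF it targeted Ccnf, which encodes the F-box protein cyclin F, and in siKEAP1/siCCNF both targets were depleted, so every group, the control included, went through transfection. Each group had 3 libraries labelled as biological replicates, and p-values measure the spread between these libraries. The design asked which genes differ in expression once KEAP1, CCNF or both are depleted.

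The libraries held 18464209 to 37743198 counts, of which the siCCNF libraries held 26039296 to 37743198. Keap1 stood at 87.8 ± 3.05 counts scaled to library size (CPM; mean ± SD, n = 3) in siCONTROL, 12.6 ± 0.279 with siKEAP1, 85.1 ± 4.35 with siCCNF and 24.1 ± 2.56 with siKEAP1/siCCNF, so its level was higher in the double than in the single depletion. Ccnf stood at 81.1 ± 3.99, 59.4 ± 4.83, 20.5 ± 0.778 and 24.5 ± 1.01 CPM in the same order. All 6 myoblast markers passed the filter on low counts, with a summed level of 1340 to 1640 CPM in siCONTROL, 738 to 788 after siKEAP1, 567 to 578 after siCCNF and 545 to 630 after siKEAP1/siCCNF. The 9 markers of differentiating muscle, 7 of them tested, summed to 86.0 to 188 CPM, 7.19 to 8.78, 30.9 to 45.0 and 16.5 to 19.1. The 5 fibroblast markers, 3 of them tested, summed to 311 to 400, 127 to 131, 1110 to 1240 and 513 to 569 CPM. None of the 5 hepatocyte markers was tested, and Alb, Ttr, Tat and Serpina1a were at 0 in every library. The part of these shifts in the results below was not tested, and in bulk RNA fewer cells of a type cannot be told apart from less RNA per cell. In siCONTROL replicate 1 and siKEAP1/siCCNF replicate 3 short genes stood higher than in the other libraries, with correlations across genes of the deviation from the group mean with gene length of -0.302 and -0.293, against -0.08 to 0.217 in the other libraries.

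Of the 187 genes, 89 had no read in any library. A further 43 had too few reads for a test, with at most 78 counts summed over the 12 libraries (Cyp2c23). The remaining 55 were tested, namely 17 of 96 Cyp, 15 of 21 Aldh, 9 of 17 Akr, 4 of 4 Cbr, 4 of 22 Ugt, 2 of 2 Nqo, 2 of 4 Ephx and 2 of 21 Sult genes. Of the 44 xenobiotic P450s of the Cyp2a to Cyp2g and Cyp3a subfamilies only 2, Cyp2d22 and Cyp2f2, were tested. By length-scaled level (FPKM), the 187 genes summed to 893 ± 56.3 in siCONTROL (mean ± SD, n = 3). The sum was 2110 ± 56.6 with siKEAP1, 846 ± 12.6 with siCCNF and 1060 ± 93.6 with both.

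A few genes carried most of each family's RNA. In siCONTROL, the aldehyde reductase gene Akr1a1 made up 68.8% of the summed Akr FPKM, the carbonyl reductase gene Cbr2 79.1% of the Cbr sum and the microsomal epoxide hydrolase gene Ephx1 99.6% of the Ephx sum. The Aldh sum was led by Aldh2, the mitochondrial acetaldehyde dehydrogenase, in siCONTROL (41.4%) and by Aldh3a1, which oxidises medium-chain and aromatic aldehydes, after siKEAP1 (70.7%). The Aldh sum went from 200 ± 6.91 FPKM in siCONTROL to 863 ± 38.7 after siKEAP1, 163 ± 3.56 after siCCNF and 238 ± 12.6 after both. The Nqo sum took the values 45.2 ± 0.997, 269 ± 10.1, 28.3 ± 0.465 and 107 ± 5.65 FPKM, and the Ephx sum 117 ± 0.901, 308 ± 7.81, 104 ± 2.44 and 138 ± 8.80. In these families the siKEAP1 libraries lay above all others and the siCCNF libraries below all others. The Akr sum, 312 ± 37.7, 337 ± 8.42, 272 ± 9.05 and 287 ± 28.7 FPKM, showed overlapping libraries between siKEAP1 and siCONTROL. The conjugating families were scarce, and the Ugt sum did not exceed 2.30 FPKM or the Sult sum 0.959 FPKM in any library.

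**Figure D1:**
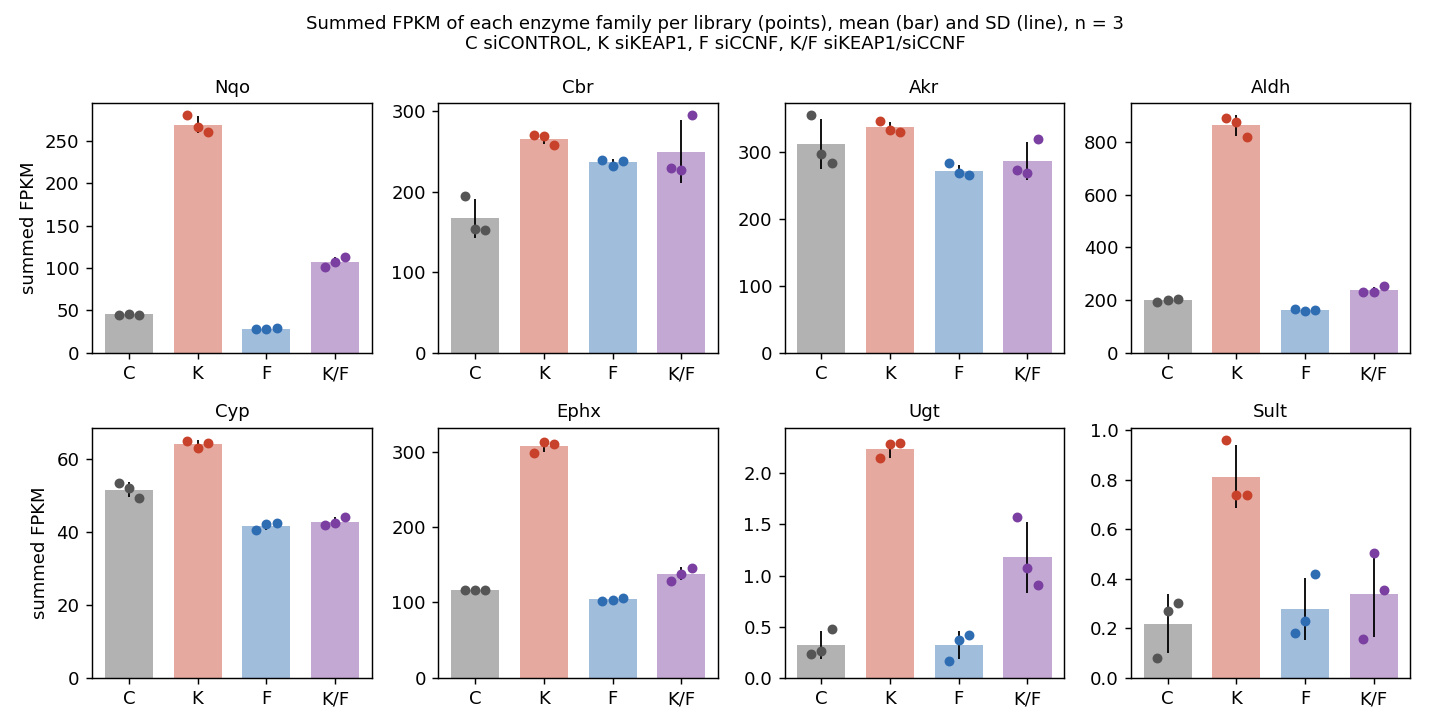
Summed FPKM of the genes of each family (y axis, linear from 0, own scale per panel) in the siCONTROL (C), siKEAP1 (K), siCCNF (F) and siKEAP1/siCCNF (K/F) libraries. Points are libraries, bars are means and vertical lines SD (n = 3). The Aldh, Nqo and Ephx sums were highest after siKEAP1, at 863, 269 and 308 FPKM, and the Ugt and Sult sums stayed under 2.5 FPKM.

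After siKEAP1, 38 of the 55 tested genes were called higher and 2 lower than in siCONTROL at an edgeR adjusted p under 0.05. Of all 15122 genes tested, 20.4% were called higher and 20.2% lower in this comparison. At a difference over 2-fold, 20 of the 55 were higher and none lower, where 7.59% and 3.88% of all genes were called. The median log2 fold change was 0.72 over the 55 genes and -0.01 over all genes tested. Some of these genes passed the filter on low counts through their siKEAP1 libraries, so the count of risen genes is a description. Of the 43 genes with a mean of at least 1 CPM over all libraries, 30 were higher and 2 lower. Of all genes at that mean, 21.1% were called higher and 22.8% lower. This mean includes the siKEAP1 libraries, so that count is a description too. By family, the genes called higher were 13 of 17 Cyp, 9 of 15 Aldh, 5 of 9 Akr, 2 of 4 Cbr, both Nqo, both Ephx, all 4 tested Ugt and 1 of 2 tested Sult genes. In the other depletions, 22.5% of all genes tested were called higher and 25.5% lower after siCCNF, and 20.6% and 23.6% after siKEAP1/siCCNF.

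The quinone reductases reduce quinones to hydroquinones without releasing a semiquinone. Nqo1 (chr8:107388225-107403206, minus strand, GRCm38) stood at 55.9, 56.9 and 55.9 CPM in the siCONTROL libraries and at 414, 394 and 382 after siKEAP1. It stood at 30.7, 30.0 and 31.6 CPM after siCCNF and at 143, 153 and 161 after siKEAP1/siCCNF. The 4 groups did not overlap, and the double depletion lay between siCONTROL and siKEAP1. The log2 fold change against siCONTROL was 2.82 (SE 0.064, edgeR adjusted p = 2.19e-11) after siKEAP1, -0.87 (SE 0.062, edgeR adjusted p = 1.76e-07) after siCCNF and 1.44 (SE 0.061, edgeR adjusted p = 4.42e-09) after both. Nqo2 (chr13:33964687-33988443, plus strand), which uses dihydronicotinamide riboside in place of NADPH, stood at 35.1, 40.0 and 37.9 CPM in siCONTROL and at 55.1, 56.1 and 58.0 after siKEAP1. It stood at 33.2, 37.2 and 35.4 CPM after siCCNF and at 39.8, 38.2 and 37.3 after siKEAP1/siCCNF. Nqo2 was thus high in the siKEAP1 libraries only, with a log2 fold change of 0.58 (SE 0.070, edgeR adjusted p = 2.14e-05). Its change was -0.10 (edgeR adjusted p = 0.279) after siCCNF and 0.03 (edgeR adjusted p = 0.768) after both. Nqo2 overlaps exons of Serpinb6a on the opposite strand, and whether counting used strand is not given in the sources used here.

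Because many of these genes moved with KEAP1 depletion, their promoters were searched for the core of the antioxidant response element, the sequence that NRF2 binds. RefSeq promoters on GRCm38.p6, from 250 bases before to 50 after the gene start, were found for 42 of the 55 tested genes. The core TGACNNNGC, sought on both strands, was present in 3 of the 42 (7.14%), in 2 of the 29 with a promoter that rose after siKEAP1 (6.90%) and in 14.0% of 27025 genes in the promoter table. The matches are shown on the strand of the gene, with the core, or its reverse complement where it lies on the other strand, in capitals.
Aldh9a1 (chr1:167349894-167349922, called higher after siKEAP1): ttaattatgcTGACTAGGCccaagctact
Cyp2j6 (chr4:96553618-96553646, minus strand, called higher after siKEAP1): actctcagaaGCTTTGTCActtcctgcga
Aldh1a2 (chr9:71215667-71215695, at the floor after siKEAP1): gccgcggactTGACCGTGCgggcgccgcg
Relative to the gene start, the core began at position -87 in Aldh9a1, 16 in Cyp2j6 and -112 in Aldh1a2. Nqo1, Cbr3, Ephx1 and Akr1c14 held none in this window, and Aldh3a1 had no entry. The xenobiotic response element core TNGCGTG, bound by the dioxin receptor, was present in 3 of the 42 (Aldh18a1, Aldh3a2 and Aldh9a1) and in 5.84% of all genes in the table. No match says only that these letters are not in this window.

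The carbonyl reductases, which reduce ketones and quinones with NADPH, are encoded by 4 genes. After siKEAP1, 2 of them were called higher, against 20.4% of all genes tested. Cbr3 stood at 32.0, 23.0 and 22.9 CPM in siCONTROL, 107, 112 and 98.3 after siKEAP1, 29.1, 25.9 and 24.8 after siCCNF and 34.6, 38.5 and 42.6 after both. Its siKEAP1 libraries lay apart from all others, with a log2 fold change of 2.02 (SE 0.13, edgeR adjusted p = 6.62e-08). Cbr1 rose by less, from 32.1 ± 3.78 to 52.9 ± 3.38 CPM (log2 fold change 0.72, edgeR adjusted p = 2.13e-05). Cbr2, the most abundant of the family by FPKM, had a log2 fold change of 0.26 after siKEAP1 (edgeR adjusted p = 0.0773), against 0.62 after siCCNF (edgeR adjusted p = 0.000477) and 0.63 after both (edgeR adjusted p = 0.000483). Cbr2 stood at 205, 163 and 163 CPM in siCONTROL and at 273, 267 and 276 after siCCNF, so that these groups did not overlap. Its level was 205 in siCONTROL replicate 1 and 327 in siKEAP1/siCCNF replicate 3, the highest of each group. Without both libraries its siKEAP1 change was 0.37 (edgeR adjusted p = 9.65e-07), and it was also called without either of them alone, at 0.25 and 0.37. Cbr4 passed the test in none of the 3 comparisons with siCONTROL.

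**Figure D2:**
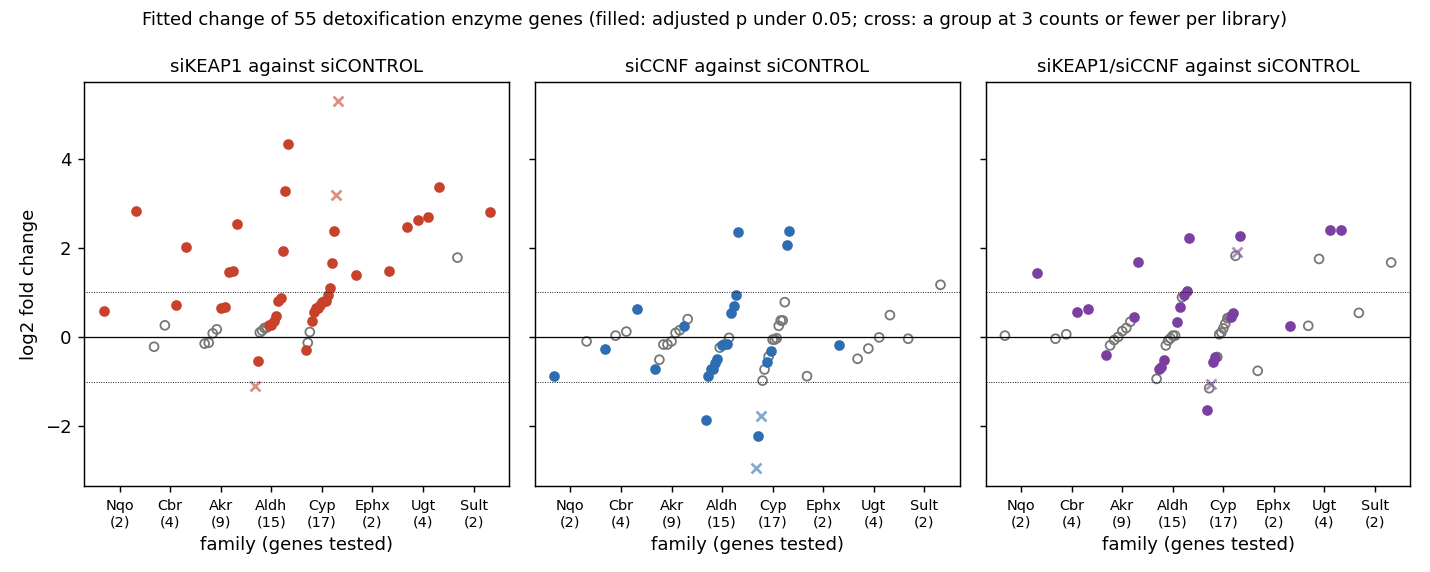
Fitted log2 fold change (y axis) of the 55 tested genes against siCONTROL, by family (x axis, genes tested in parentheses), for siKEAP1, siCCNF and siKEAP1/siCCNF. Filled points have an edgeR adjusted p under 0.05, and dotted lines mark 2-fold. Crosses mark genes at 3 counts or fewer in every library of a compared group, called or not. Cyp11a1 and Cyp2f2, both called after siKEAP1, are thus drawn as crosses there. After siKEAP1, 38 genes were called higher and 2 lower, and after siCCNF 8 higher and 15 lower.

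Among the aldehyde dehydrogenases, a set grouped here broadly for lipid aldehydes and acetaldehyde rose after siKEAP1, all 5 tested of 7 being called higher. These were Aldh2, Aldh3a1, Aldh3a2, Aldh3b1 and Aldh9a1. Of all genes tested, 20.4% were called higher in this comparison. Aldh3a1 (chr11:61207537-61218421, plus strand) stood at 43.1, 68.5 and 66.9 CPM in siCONTROL and at 1240, 1220 and 1110 after siKEAP1. It stood at 39.4, 33.9 and 35.9 CPM after siCCNF and at 104, 117 and 120 after siKEAP1/siCCNF. No 2 groups overlapped, and siKEAP1 was higher than siCONTROL (log2 fold change 4.32, SE 0.16, edgeR adjusted p = 5.68e-10). Against siCONTROL, Aldh3a1 changed by -0.71 on the log2 scale after siCCNF (edgeR adjusted p = 0.00111) and by 0.93 after both (edgeR adjusted p = 0.000127). Aldh3b1, a membrane-associated relative, stood at 24.8, 22.3 and 23.4 CPM in siCONTROL, 45.8, 44.0 and 39.4 after siKEAP1, 14.5, 11.9 and 12 after siCCNF and 17.0, 15.8 and 16.7 after both. Aldh3b1 was thus above siCONTROL in every siKEAP1 library and below it in every library with siCCNF, with log2 fold changes of 0.87, -0.87 and -0.51 (edgeR adjusted p = 6.71e-06, 7.18e-06 and 0.000679). Aldh2 rose from 427 ± 8.29 to 747 ± 8.41 CPM after siKEAP1 (log2 fold change 0.81, edgeR adjusted p = 3.74e-07). It stood at 381 ± 9.66 CPM after siCCNF and 539 ± 41.4 after both. The siCCNF call of Aldh2 (log2 fold change -0.16, edgeR adjusted p = 0.0433) was lost without any of 10 libraries, with values of -0.18 to -0.14. Aldh3a2, which oxidises fatty aldehydes, rose by 0.48 on the log2 scale after siKEAP1 (edgeR adjusted p = 5.50e-05), with -0.02 after siCCNF and -0.03 after both (edgeR adjusted p = 0.834 and 0.710).

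Of 9 aldehyde dehydrogenases of amino acid and one-carbon metabolism 8 were tested, and 3 were called higher and 1 lower after siKEAP1, 3 higher and 3 lower after siCCNF, and 2 higher and 2 lower after both. Of all genes tested, 20.4% and 20.2%, 22.5% and 25.5%, and 20.6% and 23.6% were called in the same order. Aldh1l1, the cytosolic 10-formyltetrahydrofolate dehydrogenase, stood at 0.538, 1.14 and 0.433 CPM in siCONTROL and at 6.64, 7.05 and 6.45 after siKEAP1. It stood at 0.542, 0.389 and 0.778 CPM after siCCNF and at 0.754, 1.42 and 1.67 after siKEAP1/siCCNF, so that only the siKEAP1 libraries lay apart (log2 fold change 3.27, SE 0.34, edgeR adjusted p = 6.23e-06). Its mitochondrial relative Aldh1l2 stood at 13.8, 24.4 and 24.5 CPM in siCONTROL, 22.0, 23.1 and 23.7 after siKEAP1, 30.1, 37.2 and 34.6 after siCCNF and 22.3, 23.8 and 17.8 after both. Here only the siCCNF libraries stood above the rest (log2 fold change 0.70, SE 0.18, edgeR adjusted p = 0.00579). Aldh5a1, which converts succinate semialdehyde in GABA breakdown, stood at 6.99, 7.65 and 6.74 CPM in siCONTROL, 7.06, 9.56 and 7.98 after siKEAP1, 13.3, 12.9 and 14.7 after siCCNF and 15.1, 15.6 and 13.3 after both. The libraries with siCCNF lay above those without it, with log2 fold changes of 0.94 (SE 0.12, edgeR adjusted p = 3.37e-05) and 1.04 (SE 0.12, edgeR adjusted p = 1.63e-05).

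Aldh18a1 and Aldh6a1 were the called falls of this set with the lowest fold changes in the double depletion. Aldh18a1, the first enzyme of proline synthesis from glutamate, stood at 75.8, 76.1 and 80.1 CPM in siCONTROL, 50.6, 51.2 and 57.5 after siKEAP1, 46.0, 47.5 and 46.6 after siCCNF and 47.2, 44.9 and 48.2 after both. Every depleted library lay below every siCONTROL library, with log2 fold changes of -0.54, -0.73 and -0.73 (edgeR adjusted p = 2.30e-05, 1.42e-06 and 1.74e-06). Aldh6a1, which acts in valine and thymine breakdown, stood at 21.6, 24.1 and 23.6 CPM in siCONTROL, 29.2, 27.9 and 26.4 after siKEAP1, 14.8, 14.7 and 16.6 after siCCNF and 15.8, 15.0 and 12.8 after both. It was above siCONTROL in the siKEAP1 libraries and below it in those with siCCNF, with log2 fold changes of 0.27, -0.59 and -0.67 (edgeR adjusted p = 0.0346, 0.000202 and 8.71e-05). Aldh1l2, Aldh5a1 and Aldh6a1 share exon positions with genes on the opposite strand, so reads of the partners could not be told apart without strand. Aldh1l1 shares exon positions with the noncoding genes Gm45901 on its own strand and Gm15756 on the opposite strand.

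**Figure D3:**
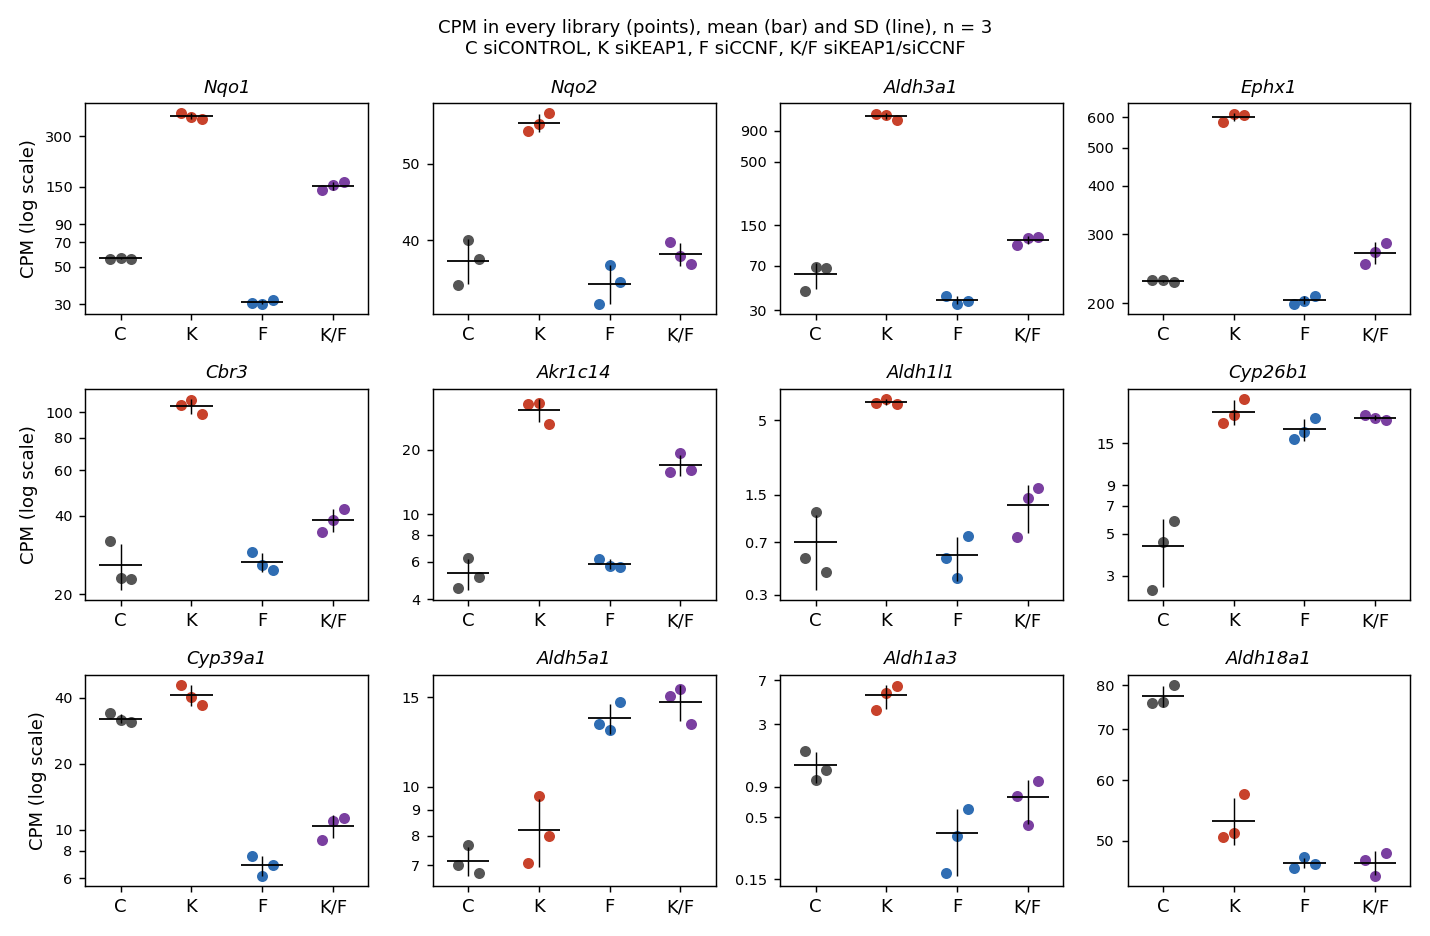
CPM (y axis, log scale, own range per panel) of 12 enzyme genes in every siCONTROL (C), siKEAP1 (K), siCCNF (F) and siKEAP1/siCCNF (K/F) library. Points are libraries, horizontal bars means and vertical lines SD (n = 3). Nqo1, Aldh3a1, Cbr3 and Aldh1l1 were highest after siKEAP1, whereas Cyp39a1 was lower in both groups with siCCNF, at 6.87 and 10.4 CPM, than in siCONTROL, at 32.2 CPM.

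Of 8 genes that make or break down retinoic acid 5 were tested, and 3 were called higher and none lower after siKEAP1, 3 higher and 1 lower after siCCNF, and 2 higher and none lower after both. Of all genes tested, 20.4% and 20.2%, 22.5% and 25.5%, and 20.6% and 23.6% were called in the same order. The rises after siKEAP1 include Cyp2s1, whose call was lost without any of 4 libraries and with DESeq2 (adjusted p = 0.0631). Cyp2s1 passed the filter on low counts only through its siKEAP1 libraries, so its part in this count is a description. Cyp26b1, which clears retinoic acid, stood at 2.51, 4.50 and 5.83 CPM in siCONTROL and at 19.3, 21.1 and 25.8 after siKEAP1. It stood at 15.8, 17.2 and 20.4 CPM after siCCNF and at 21.1, 20.5 and 19.9 after siKEAP1/siCCNF. All 9 depleted libraries lay above the siCONTROL libraries, with log2 fold changes of 2.38, 2.06 and 2.26 (edgeR adjusted p = 1.90e-06, 5.30e-06 and 2.84e-06). The related Cyp26a1 held 2, 5 and 0 counts in siCONTROL, 4, 7 and 3 after siKEAP1, 33, 10 and 18 after siCCNF and 10, 17 and 7 after both. Its siCCNF rise (log2 fold change 2.37, edgeR adjusted p = 0.0106) was lost without siCCNF replicate 1, at 1.89, and was 3.60 without siCONTROL replicate 2. Cyp26a1 passed the filter on low counts only through libraries with siCCNF, so this call is a description.

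The retinaldehyde dehydrogenases Aldh1a2 and Aldh1a3, which make retinoic acid, differed from each other. Aldh1a3 stood at 1.79, 1.03 and 1.25 CPM in siCONTROL, 3.95, 5.51 and 6.27 after siKEAP1, 0.171, 0.350 and 0.590 after siCCNF and 0.754, 0.431 and 1.01 after both. The siKEAP1 libraries lay above siCONTROL and the siCCNF libraries below it, with log2 fold changes of 1.93 (SE 0.35, edgeR adjusted p = 0.000580) and -1.86 (SE 0.43, edgeR adjusted p = 0.00299). Aldh1a2 held 4, 3 and 1 counts in siCONTROL, 0, 1 and 3 after siKEAP1, 21, 17 and 29 after siCCNF and 19, 16 and 15 after both. It was called higher in both groups with siCCNF (edgeR adjusted p = 0.00250 and 0.00444) and held at most 4 counts per library elsewhere, so that it passed the filter on low counts only through the groups where it was high and these calls are a description. Of 10 other retinoid handling genes 7 were tested. After siKEAP1, 1 of them was called higher (Rdh10, which makes retinaldehyde, log2 fold change 0.99) and 3 lower, among them Stra6, the retinol uptake receptor, at -2.21. None was called higher and 3 were called lower after siCCNF, and 1 was higher and 4 lower after both, beside the shares of all genes given above.

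Of the 9 tested aldo-keto reductases 5 were called higher after siKEAP1, against 20.4% of all genes tested. Akr1c genes reduce steroid and other ketones, and all 3 tested of the 10 Akr1c and Akr1d genes were called higher after siKEAP1. Akr1c14 stood at 4.53, 6.24 and 5.10 CPM in siCONTROL, 32.7, 33.1 and 26.4 after siKEAP1, 6.19, 5.72 and 5.64 after siCCNF and 15.8, 19.2 and 16.0 after both. The siKEAP1 and double depletion libraries lay apart from each other and from the rest, with log2 fold changes of 2.54 (SE 0.14, edgeR adjusted p = 1.74e-08) and 1.69 (SE 0.14, edgeR adjusted p = 7.24e-07). Akr1c12 and Akr1c13 rose by 1.47 and 1.45 on the log2 scale after siKEAP1 (edgeR adjusted p = 0.00102 and 9.37e-05), with 0.34 and -0.07 after both (edgeR adjusted p = 0.380 and 0.811). These near-identical genes could share reads, and Akr1c14 overlaps the pseudogene Gm18857. Of the 6 tested aldose and aldehyde reductases, Akr1b8 and Akr1b10 rose by 0.68 and 0.66 after siKEAP1 (edgeR adjusted p = 7.83e-05 and 8.40e-05). Akr1b3, the aldose reductase of the same subfamily, had 0.08 after siKEAP1 (edgeR adjusted p = 0.526) and fell by 0.73 after siCCNF (edgeR adjusted p = 2.07e-05). Akr1a1, the most abundant, stood at 594 ± 70.5, 541 ± 13.1, 528 ± 20.7 and 521 ± 49.2 CPM in siCONTROL, siKEAP1, siCCNF and siKEAP1/siCCNF and passed the test in none of the comparisons with siCONTROL. Its log2 fold change after both was -0.19 (edgeR adjusted p = 0.0946), and it was called lower there without siCONTROL replicate 3 or siKEAP1/siCCNF replicate 3 (-0.27 to -0.25), with the gene length trend removed (-0.19, edgeR adjusted p = 0.0261) and without both libraries with that trend (-0.17, edgeR adjusted p = 0.0066).

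The P450s that were detected act mostly on lipids. The 5 tested of 28 fatty acid P450s (the Cyp4a to Cyp4x and Cyp2j subfamilies) were all called higher after siKEAP1, with log2 fold changes of 0.55 to 0.80, and 1 was higher and 1 lower after both. Of all genes tested, 20.4% were called higher after siKEAP1, and 20.6% higher and 23.6% lower after both, so the counts after both were near these shares. Cyp4f16, the one with the highest FPKM, went from 23.7 ± 3.14 to 37.0 ± 1.14 CPM (log2 fold change 0.64, edgeR adjusted p = 0.000174) and stood at 22.8 ± 0.631 after siCCNF and 24.8 ± 2.42 after both. Cyp39a1, which hydroxylates 24-hydroxycholesterol, stood at 33.9, 31.5 and 31.0 CPM in siCONTROL and at 45.8, 40.3 and 37.1 after siKEAP1. It stood at 7.56, 6.14 and 6.92 CPM after siCCNF and at 8.97, 10.9 and 11.3 after both. All libraries with siCCNF lay below those without it, and the log2 fold change was -2.22 (SE 0.11, edgeR adjusted p = 1.41e-08) after siCCNF and -1.63 (SE 0.11, edgeR adjusted p = 1.65e-07) after both. Its rise of 0.35 after siKEAP1 (edgeR adjusted p = 0.0166) was lost without siCONTROL replicate 2 or 3 or siKEAP1 replicate 1, at 0.26 to 0.33. Cyp46a1, the cholesterol 24-hydroxylase that makes the substrate of Cyp39a1, rose by 0.93 after siKEAP1 (edgeR adjusted p = 0.000526). Cyp20a1, an orphan P450 and the family member with the highest FPKM, stood at 56.5, 56.6 and 53.4 CPM in siCONTROL, 46.0, 44.2 and 46.4 after siKEAP1, 42.5, 47.7 and 44.6 after siCCNF and 40.1, 40.3 and 40.6 after both. Every depleted library lay below siCONTROL, with log2 fold changes of -0.29, -0.31 and -0.46 (edgeR adjusted p = 0.00262, 0.00135 and 6.23e-05).

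Among the P450s at low counts, Cyp11a1 and Cyp2f2 had more than 7 counts only in the siKEAP1 libraries. Cyp11a1, which starts steroid synthesis by cleaving the cholesterol side chain, held 2, 0 and 0 counts in siCONTROL, 33, 34 and 34 after siKEAP1, none after siCCNF and 4, 7 and 0 after both. Cyp2f2, known from lung club cells, held 2, 3 and 0 counts, 21, 19 and 14, 0, 1 and 1, and 0, 3 and 0 in the same order. Both were called higher after siKEAP1 (edgeR adjusted p = 0.000286 and 0.00299), and the filter admitted them through these libraries. Cyp11b1 held 4, 1 and 9 counts in siCONTROL and 10, 21 and 19 after siKEAP1, and Cyp2s1 held 9, 7 and 5 against 11, 23 and 17. Their calls (edgeR adjusted p = 0.0231 and 0.0253) were each lost without any of 4 libraries, with log2 fold changes of 1.23 to 1.53 and 0.87 to 1.16. Cyp11b1 and Cyp2s1 also passed the filter on low counts only through their siKEAP1 libraries, so these calls are a description. Cyp11a1 overlaps the noncoding gene Gm17322 on its strand.

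Ephx1, the microsomal epoxide hydrolase, stood at 229, 229 and 227 CPM in siCONTROL, 583, 611 and 606 after siKEAP1, 199, 203 and 209 after siCCNF and 252, 271 and 286 after both. The 4 groups did not overlap, and the siKEAP1 change was 2.63-fold (log2 fold change 1.39, SE 0.059, edgeR adjusted p = 2.51e-09). Its siCCNF difference of -0.17 (edgeR adjusted p = 0.0324) was lost without any of 5 libraries, at -0.18 to -0.15. Ephx1 shares exon positions with the pseudogene Gm36961. The soluble epoxide hydrolase Ephx2 held 17, 23 and 17 counts in siCONTROL and 34, 76 and 73 after siKEAP1, and its call (edgeR adjusted p = 0.0425) was lost without any of 7 libraries, at log2 fold changes of 1.32 to 1.72.

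The conjugating enzymes were at low counts throughout. The glucuronosyltransferase genes Ugt1a6a, Ugt1a6b and Ugt1a7c share the 3′ exons of the Ugt1a locus, so their counts may have been split among them. Ugt1a6b held 2, 6 and 7 counts in siCONTROL, 22, 40 and 34 after siKEAP1, 3, 6 and 15 after siCCNF and 45, 33 and 27 after both. Ugt1a7c held 3, 2 and 7, 37, 59 and 47, 2, 4 and 10, and 31, 32 and 21 counts. Ugt1a6a held 4, 0 and 12, 45, 31 and 35, 6, 15 and 14, and 30, 32 and 10 counts. In all 3 the siKEAP1 libraries lay above siCONTROL (edgeR adjusted p = 0.00191, 5.33e-05 and 0.00633 for Ugt1a6b, Ugt1a7c and Ugt1a6a). All 3 passed the filter on low counts only with the libraries given siKEAP1, so their calls after siKEAP1 and after both are a description. Ugt1a6b and Ugt1a7c were also called higher after both depletions (edgeR adjusted p = 0.00200 and 0.00107), and Ugt1a6a was not (log2 fold change 1.75, edgeR adjusted p = 0.0558). Ugt1a6a was called after both without siCONTROL replicate 3 or siKEAP1/siCCNF replicate 3 (2.04 to 3.11), with DESeq2 (1.78, adjusted p = 0.0184), without the filter on low counts (1.75, edgeR adjusted p = 0.00781) and with the gene length trend removed (1.79, edgeR adjusted p = 0.0399). Their fold changes depended on siCONTROL replicate 3, without which the siKEAP1 log2 fold change went from 2.63 to 3.99 for Ugt1a6a and from 3.37 to 4.01 for Ugt1a7c. Ugt8a, which makes galactosylceramide and is not a drug-conjugating enzyme, held 12, 8 and 12 counts in siCONTROL, 73, 81 and 78 after siKEAP1, 10, 10 and 16 after siCCNF and 20, 21 and 9 after both. Only its siKEAP1 libraries lay apart (log2 fold change 2.68, SE 0.27, edgeR adjusted p = 5.02e-06). The sterol sulfotransferase gene Sult2b1 held 2, 0 and 12 counts in siCONTROL and 43, 36 and 32 after siKEAP1 (edgeR adjusted p = 0.00482), with a log2 fold change of 2.81 that became 4.91 without siCONTROL replicate 3. Its counts were 7, 2 and 13 after siCCNF and 4, 15 and 8 after both, so it passed the filter through its siKEAP1 libraries. Sult6b1 held 1, 5 and 2 counts in siCONTROL and 7, 12 and 13 after siKEAP1, 3, 6 and 21 after siCCNF and 3, 20 and 12 after both (edgeR adjusted p = 0.108, 0.278 and 0.121, the last called without siKEAP1/siCCNF replicate 1 at 2.09). With the replicate number as a block, its siKEAP1 change was called (1.80, edgeR adjusted p = 0.0409).

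After siCCNF, 8 of the 55 genes were called higher and 15 lower than in siCONTROL, against 22.5% and 25.5% of all genes tested. At a difference over 2-fold, 3 were higher (Cyp26b1, Cyp26a1 and Aldh1a2) and 2 lower (Cyp39a1 and Aldh1a3), against 4.61% and 6.76% of all genes. Of these, Cyp26a1 and Aldh1a2 passed the filter on low counts only through libraries with siCCNF. The median log2 fold change was -0.16 over the 55 genes and 0.01 over all genes tested, and it was -0.13 without the 3 genes at the floor in a group. Of the 23 calls, 12 were among the 15 Aldh genes (4 higher and 8 lower), and none was a Ugt or Sult gene. Of the 38 genes called higher after siKEAP1, 2 were called higher and 12 lower after siCCNF, in comparisons that share the siCONTROL libraries.

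After siKEAP1/siCCNF, 16 genes were called higher and 7 lower than in siCONTROL, against 20.6% and 23.6% of all genes tested. Over 2-fold, 7 were higher (Nqo1, Akr1c14, Aldh1a2, Aldh5a1, Cyp26b1, Ugt1a6b and Ugt1a7c) and 1 lower (Cyp39a1), against 4.73% and 5.54%. Of these, Aldh1a2 passed the filter on low counts only through libraries with siCCNF, and Ugt1a6b and Ugt1a7c only through libraries with siKEAP1. The median log2 fold change was 0.20. Set against the single KEAP1 depletion, siKEAP1/siCCNF had 4 genes called higher and 33 lower, where 24.1% and 26.9% of all genes were called. The median log2 fold change was -0.51. Some of these genes passed the filter on low counts through their siKEAP1 libraries, so this count of falls is a description. Of the 43 genes with a mean of at least 1 CPM, 3 were higher and 28 lower, against 26.4% and 28.4% of all genes at that mean. That mean includes the siKEAP1 libraries, so these counts are a description too. The fall against siKEAP1 was 3.39 on the log2 scale in the case of Aldh3a1, 1.38 for Nqo1, 1.15 for Ephx1 and 1.98 for Cyp39a1.

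How far siKEAP1 acted in CCNF-depleted cells was read from siKEAP1/siCCNF against siCCNF, which shares no library with siKEAP1 against siCONTROL. Here 11 genes were called higher and 1 lower, against 3.00% and 2.19% of all genes tested. The 11 were all among the 38 risen after siKEAP1 in control cells. They were Nqo1, Aldh3a1, Aldh2, Aldh3b1, Cbr1, Cbr3, Akr1c14, Cyp39a1, Ephx1, Ugt1a6b and Ugt1a7c, and the fall was that of Aldh1l2. Ugt1a6b and Ugt1a7c passed the filter on low counts only through libraries with siKEAP1, so their part in the count of 11 is a description. The log2 fold change in CCNF-depleted cells was 2.31 for Nqo1 (edgeR adjusted p = 3.60e-10), 1.64 for Aldh3a1 (edgeR adjusted p = 2.40e-05), 1.54 for Akr1c14 (edgeR adjusted p = 2.16e-05), 0.50 for Aldh2 (edgeR adjusted p = 0.000443) and 0.40 for Ephx1 (edgeR adjusted p = 0.00146). It was 2.42 for Ugt1a6b and 2.65 for Ugt1a7c (edgeR adjusted p = 0.0104 and 0.00370), which became 3.08 and 3.31 without siCCNF replicate 3. The count of 12 calls dropped to 7 without siCCNF replicate 2, without siCCNF replicate 3 or without siKEAP1/siCCNF replicate 2. The calls of Aldh3b1 and Cbr1 were each lost without any of 10 libraries (0.31 to 0.38 and 0.29 to 0.35), that of Aldh1l2 without any of 9 (-0.77 to -0.56), that of Cbr3 without any of 4 (0.46 to 0.53) and that of Cyp39a1 without siCCNF replicate 2 or 3 or siKEAP1/siCCNF replicate 2 (0.51 to 0.58).

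The difference between both effects was tested directly, as the interaction, which is the siKEAP1 effect in CCNF-depleted cells minus that in control cells. It was called negative in 23 of the 55 genes and positive in 1, where 10.5% and 10.6% of all genes tested were called. The fitted interaction was negative in 45 of the 55 genes, among them Aldh1l2, whose effect went from 0.14 to -0.67. The median interaction was -0.51 on the log2 scale, against 0.01 over all genes tested. Some of the 55 genes passed the filter on low counts through their siKEAP1 libraries, so the count of 45 is a description. Of the 43 genes with a mean of at least 1 CPM, 23 were called negative and 1 positive, against 11.4% and 12.1% of all genes at that mean. That mean includes the siKEAP1 libraries, so these counts are a description too. For Aldh3a1, the effect of 4.32 in control cells stood beside 1.64 in CCNF-depleted cells (interaction -2.68, SE 0.20, edgeR adjusted p = 3.26e-06). For Nqo1, 2.82 stood beside 2.31 (interaction -0.51, SE 0.086, edgeR adjusted p = 0.000976), so Nqo1 kept a larger part of its effect on this scale than Aldh3a1. Cbr3 had 2.02 beside 0.54 (interaction -1.48, edgeR adjusted p = 8.47e-05) and Ephx1 1.39 beside 0.40 (interaction -0.99, edgeR adjusted p = 7.92e-06). For Cyp26b1, which siCCNF alone also raised, 2.38 stood beside 0.20 (interaction -2.17, SE 0.29, edgeR adjusted p = 0.000190). The positive case was Aldh18a1, with -0.54 beside 0.00 (interaction 0.54, SE 0.093, edgeR adjusted p = 0.00112). For Ugt1a6b and Ugt1a7c, 2.47 beside 2.42 and 3.37 beside 2.65, the interaction was not called (edgeR adjusted p = 0.974 and 0.521), with 95% intervals of -1.66 to 1.56 and -2.23 to 0.79. Keap1 itself stood at 12.6 CPM after siKEAP1 and at 24.1 after siKEAP1/siCCNF, and its part in these differences was not tested. The count of 24 calls was 15 without siKEAP1 replicate 1 and without siKEAP1/siCCNF replicate 1.

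**Figure D4:**
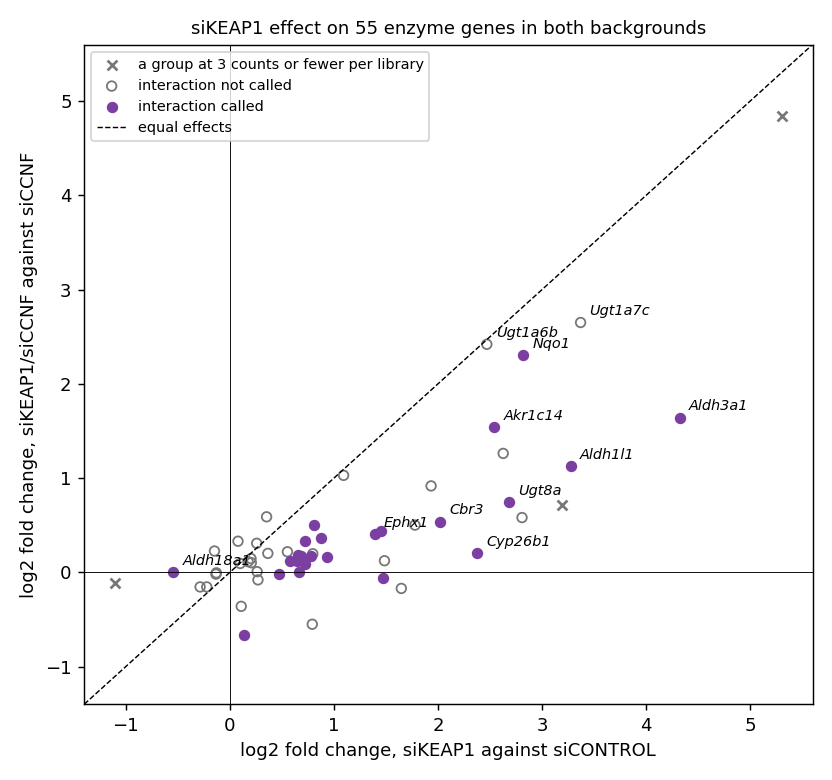
Log2 fold change of siKEAP1/siCCNF against siCCNF (y axis) by that of siKEAP1 against siCONTROL (x axis) for the 55 tested genes. These comparisons share no library. Filled points have a called interaction, crosses mark genes at 3 counts or fewer in every library of a group, and the dashed line marks equal effects. Of the 55 genes, 45 lie below the line, and Aldh3a1 lies far from it at 4.32 and 1.64.

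The proteins that serve these enzymes were read from lists of other genes. Of 18 genes for electron and cofactor supply 16 were tested, and 8 were called higher and 2 lower after siKEAP1, 5 higher and 8 lower after siCCNF, and 6 higher and 7 lower after both. Of all genes tested, 20.4% and 20.2%, 22.5% and 25.5%, and 20.6% and 23.6% were called in these comparisons. Por, the P450 reductase, stood at 122, 195, 80.3 and 106 CPM in siCONTROL, siKEAP1, siCCNF and siKEAP1/siCCNF (group means, log2 fold changes of 0.68, -0.60 and -0.20 with edgeR adjusted p = 2.15e-06, 5.32e-06 and 0.0225). Cyb5a, the cytochrome b5 that passes electrons to P450s, rose by 1.24 after siKEAP1 (edgeR adjusted p = 4.61e-06). Ugdh, which makes UDP-glucuronic acid for the glucuronosyltransferases, had a log2 fold change of 0.09 after siKEAP1 (edgeR adjusted p = 0.329) and fell by 0.90 after siCCNF (edgeR adjusted p = 3.53e-07). Papss2, which makes the sulfate donor, rose by 0.71 after siKEAP1 (edgeR adjusted p = 0.0336) and fell by 1.16 after siCCNF (edgeR adjusted p = 0.00263).

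Of 23 genes for factors that sense xenobiotics or oxidants 19 were tested, and 6 were called higher and 5 lower after siKEAP1, 7 higher and 5 lower after siCCNF, and 7 higher and 6 lower after both. These counts stand beside the same shares of all genes tested, and the lower ones after siKEAP1 and after both include Keap1, the target of the siRNA. The mRNA of Nfe2l2, which encodes NRF2, stood at 170, 150, 129 and 110 CPM in siCONTROL, siKEAP1, siCCNF and siKEAP1/siCCNF (group means, log2 fold changes of -0.19, -0.41 and -0.64 with edgeR adjusted p = 0.0128, 3.75e-05 and 9.26e-07). Its partner gene Mafg rose by 0.92 after siKEAP1 (edgeR adjusted p = 2.56e-07). Ahr, the dioxin receptor gene, rose by 1.94, 1.42 and 1.68 in the 3 depletions (edgeR adjusted p = 1.21e-06, 1.44e-05 and 4.03e-06). The xenobiotic receptor genes Nr1i2 and Nr1i3 were not tested, and Nr1i2 was at 0 in every library.

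Beside the fibroblast markers given above, markers of 4 further cell types were read. Of the macrophage markers 3 of 5 were tested, and their summed level was 3.23 to 4.44 CPM in siCONTROL, 7.25 to 12.4 after siKEAP1, 7.81 to 9.41 after siCCNF and 6.15 to 9.71 after both. The 5 adipocyte markers, 1 of them tested and Cfd at 0, summed to 0.0448 to 0.144, 2.24 to 3.40, 0.0855 to 0.268 and 0.198 to 0.395 CPM. The 3 endothelial markers, 1 of them tested, summed to 0.359 to 0.626, 0.833 to 1.38, 0 to 0.505 and 0.132 to 0.277 CPM. The 3 keratinocyte markers, 2 of them tested, summed to 12.4 to 17.8, 41.5 to 47.1, 14.8 to 22.3 and 21 to 25.5 CPM. The adipocyte sum rested on Fabp4, which rose after siKEAP1 by 4.94 on the log2 scale (edgeR adjusted p = 2.45e-06). The keratinocyte sum rested on Krt14, which rose by 1.75 (edgeR adjusted p = 7.38e-06), whereas Trp63, the other tested keratinocyte marker, fell by 1.41 (edgeR adjusted p = 0.00513). Of the macrophage markers, Cd68 rose by 2.90 (edgeR adjusted p = 2.34e-05) and Lyz2 fell by 0.74 (edgeR adjusted p = 0.0439) after siKEAP1. The part of such markers in the results was not tested.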

How the data were processed

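RNA of C2C12 cells was sequenced in 12 libraries, 3 per siRNA group. The authors deposited one table with read counts and FPKM per gene. The submitters' processing notes name HISAT2 and GRCm39, whereas gene positions in the deposited table are those of GRCm38, which are printed here. The counter, the annotation and the strand setting are not given in the sources used here. The deposited counts are whole numbers without normalization, and the deposited FPKM values are scaled by gene length and library size by the authors. Columns with the authors' own fold changes and p-values were not used.

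Counts were tested in R 4.3.3 with the quasi-likelihood test of edgeR 4.0.16, after filterByExpr and TMM scaling, with 1 mean per group over all 12 libraries. P-values were adjusted by Benjamini-Hochberg over 15122 genes, and an adjusted p under 0.05 was a call. CPM values use the TMM-scaled library sizes. A level at or under 3 counts per library was taken as the floor, and intervals are at 95%. The floor only marks genes of few counts, and counting error also affects genes above it. The script was tested on simulated data. Alternatives were DESeq2 1.42.0, limma 3.58.1 on log2(FPKM + 1), no TMM, other count filters, a replicate block, a gene length correction, other thresholds, the compared groups alone, and omission of single libraries or of both libraries with a length trend.

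Named were Nqo1, Nqo2, every gene called over 2-fold in any of 6 comparisons or called in the interaction, and the gene with the highest FPKM of each family. By rule, values per library are given for Nqo1, Nqo2 and the 3 strongest called rises and falls against siCONTROL at a mean of at least 1 CPM. They are also given for genes that this rule did not select, namely Cbr2, Cbr3, Ephx1 and genes of low counts. Other genes appear as examples of their group and were chosen after their values were seen. The genes and the lists (electron and cofactor supply, xenobiotic sensing, retinoid handling, cell type markers) were chosen with earlier results of these data known.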

Additional observations from a re-analysis of the deposited data

Results flagged for a closer look

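The siKEAP1 effect differed between control and CCNF-depleted cells in 24 genes by the test of the difference itself (edgeR interaction, adjusted over all genes tested). On the log2 scale the difference was -2.68 for Aldh3a1, -2.17 for Cyp26b1, -2.15 for Aldh1l1, -1.94 for Ugt8a, -1.53 for Akr1c12, -1.48 for Cbr3, -1.01 for Akr1c13 and -1 for Akr1c14. Smaller negative differences were -0.99 for Ephx1, -0.81 for Aldh1l2, -0.76 for Cyp46a1, -0.67 for Cyp4v3, -0.64 for Cyp4f13 and -0.61 for Cyp2u1. The remaining negative ones were -0.52 for Cyp4f16, -0.51 for Akr1b8, -0.51 for Aldh3b1, -0.51 for Nqo1, -0.49 for Aldh3a2, -0.47 for Akr1b10, -0.46 for Nqo2, -0.39 for Cbr1 and -0.31 for Aldh2. The difference was positive for Aldh18a1, at 0.54. The calls of Akr1b10, Akr1c13, Aldh1l2, Aldh2, Cbr1, Cyp2u1, Cyp46a1, Cyp4f13 and Cyp4v3 were lost without some single libraries.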

How the results depend on the processing

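In the order siKEAP1, siCCNF and siKEAP1/siCCNF against siCONTROL, siKEAP1/siCCNF against siKEAP1 and against siCCNF, and the interaction, the counts of enzyme genes called were 40, 23, 23, 37, 12 and 24. Requiring a difference over 2-fold left 20, 5, 8, 18, 5 and 8. An adjusted p under 0.01 left 6 against siCCNF and 11 in the interaction. Leaving out 1 library at a time gave 34 to 41, 18 to 24, 22 to 26, 33 to 39, 7 to 15 and 15 to 23. DESeq2 gave 39, 24, 27, 37, 16 and 24. Of 4943 values of the 42 named genes under the alternatives, 4673 kept their direction and side of the threshold, 200 lost a call, 69 gained one and 1 reversed. That one was Cbr2 in siKEAP1/siCCNF against siCCNF, from 0.01 to -0.15 (edgeR adjusted p = 0.0155) with both length-trend libraries left out, and the cause was not tested.

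With the replicate number as a block, the counts were 38, 22, 23, 36, 11 and 21. The replicate block ended the calls of Ephx2 after siKEAP1 (1.45, edgeR adjusted p = 0.0502), Aldh2 after siCCNF, Cyp20a1 against siKEAP1, Cbr1 against siCCNF, and Cbr1, Cyp4f13 and Cyp4v3 in the interaction. It added a call for Sult6b1 after siKEAP1 (1.80, edgeR adjusted p = 0.0409). Deviations of same-numbered libraries had correlations of -0.277 to 0.205 over 15 pairs, 4 of them over 0.1. Pairs of siKEAP1 or siCCNF with siCONTROL had 0.0381 to 0.205, and pairs of siKEAP1/siCCNF with siCONTROL had -0.277 to 0.146. Of 12 libraries, 6 correlated best with their own number. Genes of low counts, as in the Ugt and Sult families, limit what this depth can show.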
